A study of Schizosaccharomyces pombe with 36 samples.

Results

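The genes described are the fission yeast splicing factors that carry a systematic name, namely the protein-coding genes whose symbol is *prp*, *cwf*, *saf*, *sap*, *smd*, *lsm* or *usp* followed by a number. The table held 70 such genes of 5133 protein-coding genes and 7039 features in all. They lie on chromosome I (20 genes), II (34 genes) and III (16 genes). By the annotation of RefSeq, 1 of the 70 is no splicing factor: *sap1* encodes the switch-activating protein Sap1. It was kept because the naming rule includes it, and its values are given apart. *lsm1* is annotated as a subunit of the mRNA-decapping complex.

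Strand-specific total RNA had been sequenced from *Schizosaccharomyces pombe* grown in yeast extract medium, before the addition of 1 M sorbitol (0 min) and during this osmotic stress, after 15 min, 30 min, 60 min, 120 min and finally 180 min. The strains were wild type (WT) and cells labelled *atf21Δ*, which by that label lack the stress transcription factor gene *atf21*. Both strains were treated alike, with 3 biological replicates per strain and time and 36 libraries in all. Reads of *atf21* were counted at 30 min in the *atf21Δ*-labelled libraries (509 to 899 reads per library, against 732 to 1081 in WT). Counts cover the whole annotated span, so whether any of these reads fell in deleted sequence cannot be told. The label could thus not be checked, and those samples are called the *atf21Δ*-labelled libraries throughout. Libraries held 7457173 to 20126545 uniquely mapped reads, of which 15159 to 50646 fell on the 70 genes. Ribosomal RNA took 34.2% to 57.5% of the reads on features, and its part in the results was not tested.

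The spliceosome removes introns from pre-mRNA. The U1 small nuclear ribonucleoprotein (snRNP) binds the 5′ splice site and the U2 snRNP the branch site, then the U4/U6.U5 tri-snRNP joins, and RNA helicases and the Prp19 complex bring the RNAs into their catalytic arrangement. Rings of Sm and Lsm proteins form the cores of the snRNPs. Unlike budding yeast, fission yeast carries introns in a large share of its genes, often several short ones per gene.

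The genes of the spliceosome are themselves spliced. In RefSeq (ASM294v3), all 70 could be matched, and 44 of them (62.9%) have an intron in the coding sequence, against 46.4% of the 5104 protein-coding genes matched. The 44 genes hold 91 coding introns with a median length of 53 bases (37 to 485), and *usp105* holds the most, 6. GTAAGT opens 28 of the 91 and GTATGT 18 (27.5% and 20% of all 5020 coding introns have these ends, against 30.8% and 19.8% here). A branch-site match on the sense strand, taken as the last word CTNAN before the end in which the inner N is A or G and the final N is C or T, was present in 80 of the 91 (87.9%, against 76.5% of all), with a median of 9 bases after it. Introns of genes whose RNA changed most at 30 min or 15 min are shown because they are the substrate of the machinery that these genes encode. Capitals mark the 5′ hexamer, the branch-site match and the 3′ end.
usp102 intron 1, chromosome II: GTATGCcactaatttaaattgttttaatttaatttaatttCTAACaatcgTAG
usp108 intron 1, chromosome I: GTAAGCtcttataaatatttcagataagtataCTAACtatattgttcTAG
prp4 intron 1, chromosome III: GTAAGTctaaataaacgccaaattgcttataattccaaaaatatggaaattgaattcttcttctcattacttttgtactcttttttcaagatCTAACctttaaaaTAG
prp22 intron 1, chromosome I: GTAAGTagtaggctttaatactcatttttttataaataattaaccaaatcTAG
cwf19 intron 1, chromosome I: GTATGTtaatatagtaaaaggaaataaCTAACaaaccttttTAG
cwf25 intron 1, chromosome II: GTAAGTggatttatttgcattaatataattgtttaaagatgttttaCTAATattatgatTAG
cwf15 intron 1, chromosome II: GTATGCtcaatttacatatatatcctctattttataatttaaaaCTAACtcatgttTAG

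The *prp22* intron held none of the 4 branch-site words. Introns of genes that fell (*usp102*, *usp108*, *prp4*) and of genes that rose (*cwf25*, *cwf15*) all ended in TAG, as did 71 of the 91.

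Before stress the 70 RNAs spanned a wide range of levels. Levels are given as scaled RPKM, reads per kilobase of feature, normalized to mapped reads, after each library was scaled to a common level. Scaling makes libraries comparable. The length used is the whole annotated span, introns included, so the order of genes depends in part on that span. In WT at 0 min the median was 13.2, close to the 13 of all protein-coding genes tested, and the range ran from 1.43 to 55.8. Highest were *lsm7*, a component of the U6 ring, at 55.8 ± 2.8 (SD, n = 3), *prp43*, the helicase that takes the spent spliceosome apart, at 52.8 ± 5.31 and *usp104* (Prp40 of the U1 snRNP) at 44.9 ± 4.05. The 3 libraries of *lsm7* (52.6, 57.5 and 57.3) overlapped those of *prp43* (58.5, 51.9 and 48), so their order is within the spread. *lsm7* also shares 63 bases (10.8% of its span) with *ucp10* on the same strand, so part of its reads is uncertain. The *usp104* libraries were at 49.1, 41 and 44.7, which also overlapped those of *prp43*.

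At the other end were *cwf12* (1.34, 1.23 and 1.71 in the 3 libraries), *cwf20* (3.02, 1.76 and 2.02) and *saf4* (3.43, 2.41 and 2.69). The last 2 overlapped each other, and *cwf12* lay below both. With 11 to 57 reads per library for *cwf12* and 6 to 71 for *cwf20*, these low levels rest on few reads. *cwf20* shares 55.3% of its span with *mid1* on the same strand, so its reads are uncertain. The members of a complex did not share a scaled RPKM: within the Prp19 complex the highest mean was 29.5 times the lowest, and within the U1 snRNP 14.9 times, whereas the 3 Sm genes stayed within 3.72 times. How much of these ratios comes from differences in annotated span was not tested. Between the strain labels at 0 min, no gene of the 70 and none of the 5882 features tested (0%) passed limma with Benjamini-Hochberg adjustment. At an unadjusted p under 0.05 there was 1 of the 70 (*cwf12*) against 1.8% of features, and voom on reads recovered from the table also called none of the 70.

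**Figure D1:**
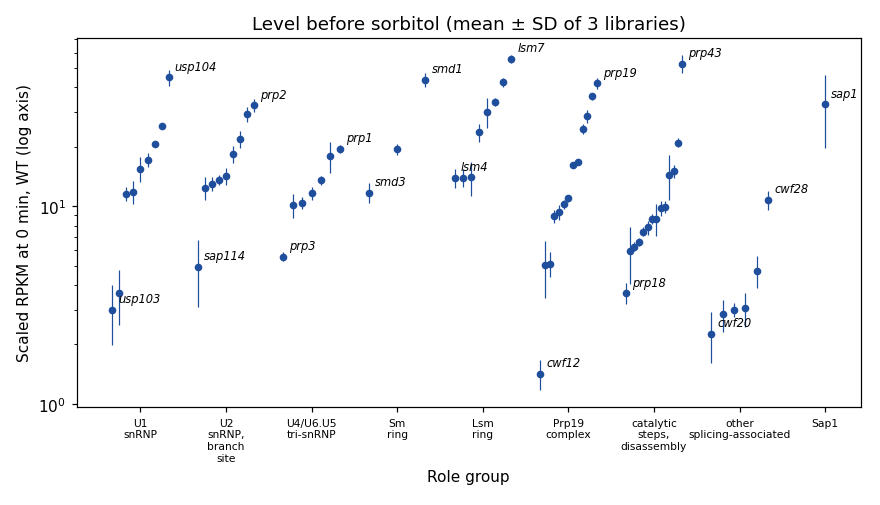
Scaled RPKM at 0 min in WT on a log axis, by role group, with points for the mean and bars for the SD of 3 libraries. Levels run from 1.43 (*cwf12*) to 55.8 (*lsm7*), and the Sm and Lsm rings have no gene under 11.

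Sorbitol changed the RNA of 27 of the 70 splicing genes in WT and of 37 in the *atf21Δ*-labelled libraries, mostly by under 2-fold and mostly at 15 and 30 min. The WT share (38.6%) is of genes that changed over time by limma's F-test with an adjusted p under 0.05, against 51.8% of all 5882 features tested. The share in the *atf21Δ*-labelled libraries was 52.9%, against 62.2%. The median of the largest absolute log2 change per gene was 0.37 in WT for the 70 and 0.58 for all features tested. Only 4 genes in WT (5.71%) and 1 in the *atf21Δ*-labelled libraries (1.43%) both changed and moved more than 2-fold at any time, against 17% and 16.1% of all features. Of the WT genes called, 26 (96.3%) were called in the other strain too, which is 70.3% of the 37 there. Over all features these shares were 85.4% and 71.1%. *prp16*, a helicase that acts between the catalytic steps, was the 1 called in WT alone. Without *sap1* the F-test counts were 26 and 36 of 69. The 1 gene over 2-fold in the *atf21Δ*-labelled libraries was *sap1*, which was also 1 of the 4 in WT.

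Calls were concentrated at 15 and 30 min. In WT, 2 genes were higher (10.8% of all features were) and 8 lower (11.5%) at 15 min, and 7 were higher (15.5%) and 7 lower (13.2%) at 30 min. In the *atf21Δ*-labelled libraries, 1 was higher (13.4%) and 11 lower (14.1%) at 15 min, and 10 were higher (19.7%) and 15 lower (19.1%) at 30 min. As shares of 70 these are at or under the background, apart from the lower calls in the *atf21Δ*-labelled libraries (15.7% at 15 min and 21.4% at 30 min), which are near it. From 60 min on, limma called 0 of the 70 in WT, against 17.2% of all features called at 60, 120 or 180 min, and 5 in the *atf21Δ*-labelled libraries, against 25.1%. At an unadjusted p under 0.05, WT had 3, 2 and 2 genes at these times, against 27.1%, 12% and 12.2% of all features. The *atf21Δ*-labelled libraries had 12, 5 and 7, against 32%, 17.6% and 17.6%. Voom called 1 gene at 60 min in WT. When each of the 18 libraries of a strain was left out in turn, calls made in every fit were those of *prp11* (higher) and *cwf28*, *prp45* and *sap145* (lower) at 15 min in WT, and those of *cwf16*, *cwf25*, *prp11* and *prp28* (higher) and *prp4*, *prp43*, *prp19* and *usp102* (lower) at 30 min. In the *atf21Δ*-labelled libraries they were 1 of 1 higher and 6 of 11 lower at 15 min and 4 of 10 and 7 of 15 at 30 min, *prp11*, *prp28*, *prp4*, *prp43*, *prp22* and *lsm7* among the last. These counts depend on a common level being set: as deposited, the RPKM of the median feature fell by 0.46 at 15 min and by 0.38 at 30 min on the log2 scale in WT, and by 0.43 and 0.30 in the *atf21Δ*-labelled libraries, and changes are given relative to that shift.

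**Figure D2:**
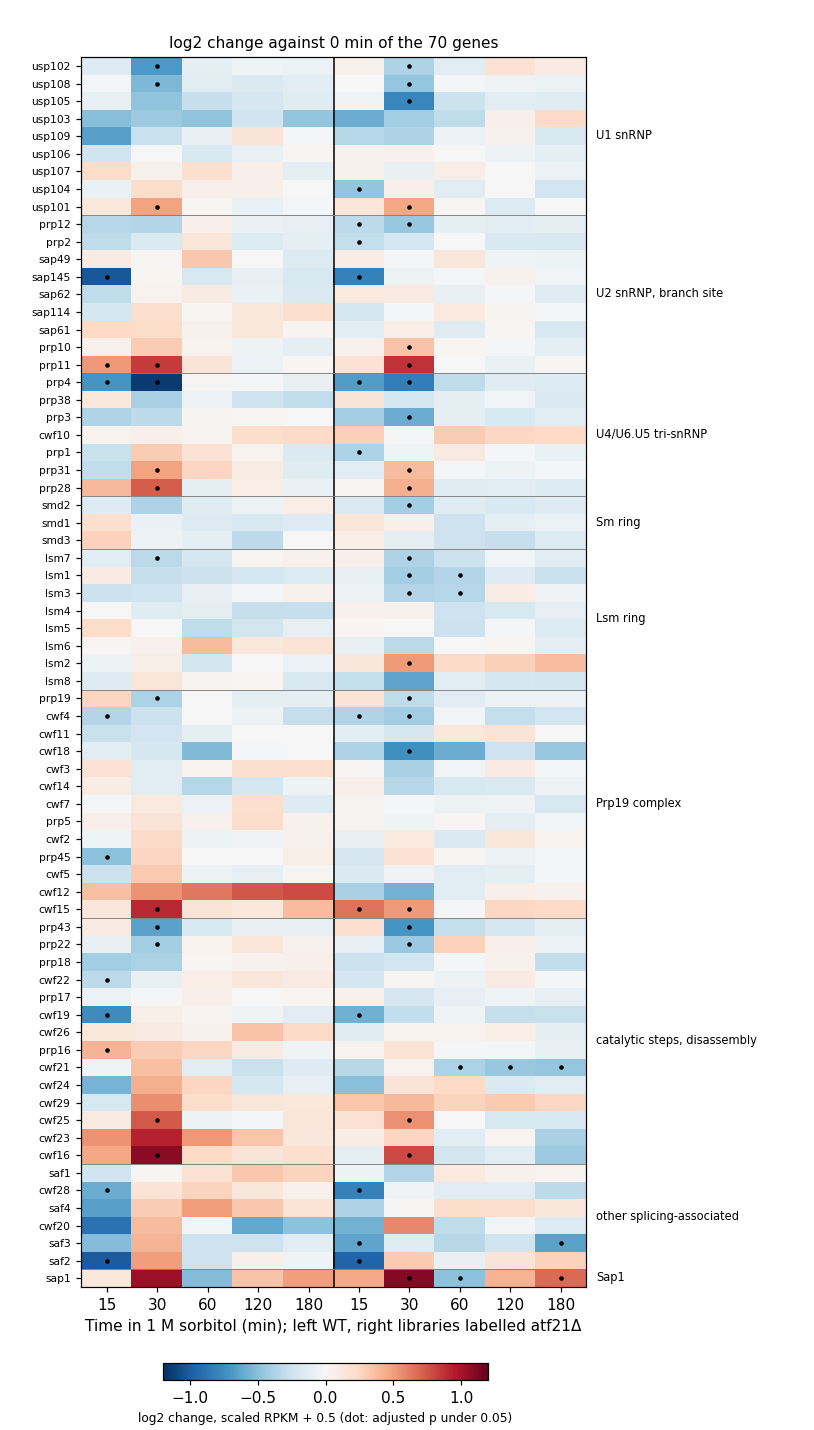
log2 change against 0 min for each of the 70 genes (rows, by role group) at 5 times in WT (left) and in the *atf21Δ*-labelled libraries (right), with a dot where the adjusted p of limma was under 0.05. Dots gather at 15 and 30 min, and the later WT columns hold none.

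The largest fall in WT, and the largest at 30 min in both strains, was that of *prp4*, the kinase that acts on the tri-snRNP before the spliceosome is activated (chromosome III, 1622498 to 1624475). In WT its scaled RPKM was 11.1, 10.5 and 9.7 at 0 min, 4.37, 6.51 and 7.99 at 15 min and 5.64, 3.37 and 4.54 at 30 min. It was back at 11.3, 10 and 10.2 by 60 min. All libraries of 15 and 30 min lay below all those of 0 min. The log2 change was -0.72 ± 0.19 (SE) at 15 min and -1.15 ± 0.19 at 30 min (adjusted p = 0.013 and 0.00034). Levels in the *atf21Δ*-labelled libraries went from 11.7, 9.82 and 10.9 to 5.83, 6.22 and 7.81 and then to 5.37, 5.74 and 6.49, again with no overlap, a log2 change of -0.83 ± 0.14 at 30 min (adjusted p = 0.00025). At 60 min these libraries stood at 8.4, 10.6 and 7.16, with a mean of 8.72 against 10.8 at 0 min and the groups overlapping. A non-coding RNA lies opposite to 98.6% of *prp4*. Its mean level in WT was 0.879, 0.631, 0.791 and 1.00 scaled RPKM at 0, 15, 30 and 60 min. In the *atf21Δ*-labelled libraries it was 0.662, 0.768, 0.352 and 1.47. There the non-coding RNA passed limma's F-test over time (adjusted p = 0.017), and in WT it did not (adjusted p = 0.56). These levels are near or under the filter of 1 RPKM, and a link to *prp4* was not tested.

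*prp43* was lowest at 30 min and had not fallen at 15 min (chromosome II, 2279697 to 2282239). Its WT libraries stood at 58.5, 51.9 and 48 at 0 min, at 56.9, 55.3 and 57.4 at 15 min and at 34.7, 33.7 and 31.9 at 30 min. Values in the *atf21Δ*-labelled libraries were 58.8, 51.9 and 51.4, then 67.2, 57.8 and 61.4, then 37, 33 and 28.8. In both strains every 30 min library was below every earlier one. At 60 min the *atf21Δ*-labelled libraries (49.3, 41.7 and 42.1) were still below all those of 0 min, while WT (49.8, 43 and 46.8) overlapped its 0 min group. The log2 change at 30 min was -0.65 ± 0.10 in WT and -0.71 ± 0.10 in the *atf21Δ*-labelled libraries (adjusted p = 0.00018 and 6.6e-05). Set against 15 min, a contrast added after the data were seen, the fall was -0.75 and -0.91.

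A second helicase of the late steps, *prp22*, which releases the spliced mRNA, was also low at 30 min. WT went from 13.7, 15.9 and 15.5 to 10.1, 12.2 and 11.2, and the *atf21Δ*-labelled libraries from 14.7, 14.1 and 14.9 to 9.22, 11.8 and 10.7, with no overlap in either. The WT change of -0.42 ± 0.13 had an adjusted p of 0.036, and it was no longer called when 1 of 5 libraries was left out (0 min replicates 2 and 3, 30 min replicates 1 and 3, 60 min replicate 3), with an adjusted p of up to 0.132.

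In the U1 snRNP the response was split. *usp102*, the U1 protein with RNA recognition motifs known as U1-A, fell in WT from 18.7, 16.4 and 16.4 to 10.9, 10.4 and 10.1 at 30 min, -0.69 ± 0.13 (adjusted p = 0.0016). In the *atf21Δ*-labelled libraries it went from 16.7, 16.9 and 15.6 to 10.6, 14.7 and 12.8, a smaller -0.37 ± 0.10 (adjusted p = 0.014), a call lost in 2 of 18 fits with 1 library left out. The difference between the strains was not called (limma's interaction test, unadjusted p = 0.263). *usp108* fell from 12, 12.2 and 10.5 to 7.51, 7.13 and 8.92 in WT (-0.54 ± 0.14, adjusted p = 0.013) and by 0.47 in the *atf21Δ*-labelled libraries. Neither gene overlapped between 0 and 30 min in either strain. With 1 library left out, the *usp108* call was made in 16 of 18 fits in WT and in 15 of 18 in the *atf21Δ*-labelled libraries. *usp105* (Prp39) fell in the *atf21Δ*-labelled libraries (-0.78 ± 0.18) and stood at -0.48 ± 0.17 in WT without passing. *usp101*, the U1-70K protein of the same particle, rose instead: 20.4, 21.1 and 20.8 became 26.6, 31.9 and 29.3 in WT (0.48 ± 0.13, adjusted p = 0.020), and the *atf21Δ*-labelled libraries went from 20.4, 22.7 and 18.6 to 28.1, 28.5 and 28.6. Without scaling the *usp101* change at 30 min was 0.10 in WT and 0.17 in the *atf21Δ*-labelled libraries. With 1 library left out, its call was made in 14 of 18 fits in WT and in 17 of 18 in the other strain. *usp101* shares 67 bases (5.99% of its span) with *dcp2* on the same strand, so part of its reads is uncertain. The other 5 U1 genes passed at no time in WT, and of them *usp104* was lower at 15 min in the *atf21Δ*-labelled libraries (-0.48 ± 0.14).

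The largest rise at 30 min in WT was that of *cwf16*, counterpart of the first-step factor Yju2 of budding yeast (chromosome I, 1488610 to 1489774). WT levels were 6.92, 10 and 9.05 at 0 min, 14.9, 11 and 10.7 at 15 min, 19.7, 16.5 and 20.2 at 30 min and 10.2, 11 and 9.51 at 60 min. All 30 min libraries exceeded all others of these times, and the group mean was 2.17-fold that of 0 min (log2 change 1.08 ± 0.18, adjusted p = 0.00039). The *atf21Δ*-labelled libraries rose from 10, 12.8 and 9.42 to 14.5, 23.7 and 19.5 (0.80 ± 0.22, adjusted p = 0.015). That call was lost without 0 min replicate 1 or 3 or 30 min replicate 2, with an adjusted p of 0.0514 to 0.0685.

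*prp11*, the helicase that acts at the branch site with the U2 snRNP (chromosome III, 519503 to 522897), rose in WT from 17.1, 20.3 and 17.6 to 26.9, 22 and 31.4 at 15 min and 34, 32.5 and 32.5 at 30 min. The *atf21Δ*-labelled libraries went from 18.5, 18.5 and 18 to 23.6, 21.7 and 17.3 and then to 32.1, 37.8 and 32.2. The 30 min groups were thus tight, above 0 min in both strains and almost alike between them, with log2 changes of 0.83 ± 0.12 and 0.87 ± 0.11 (adjusted p = 9.5e-05 and 8.4e-06). At 15 min the groups overlapped in the *atf21Δ*-labelled libraries and did not in WT, where the call (0.52 ± 0.12) was lost without scaling (0.03).

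*prp28*, the helicase that exchanges U1 for U6 at the 5′ splice site, rose from 12.3, 12 and 10.6 to 17.9, 19.1 and 21.9 in WT and from 12.8, 13.3 and 13.8 to 16.4, 21.6 and 16.6 in the *atf21Δ*-labelled libraries (0.73 ± 0.13 and 0.43 ± 0.11). *cwf25*, a factor of the first catalytic step, rose from 8.21, 9.21 and 8.54 to 13.1, 14.1 and 17.3 and from 8.6, 12.2 and 8.91 to 12.4, 17.5 and 14.3 (0.74 ± 0.14 and 0.55 ± 0.15). For both genes all 30 min libraries lay above all 0 min libraries. *prp31*, which holds U4 and U6 together in the tri-snRNP, had 13, 14.3 and 13.3 at 0 min, 13, 10.1 and 9.96 at 15 min and 20.6, 16 and 21 at 30 min in WT (0.48 ± 0.14 at 30 min, adjusted p = 0.024), so its steepest step was between 15 and 30 min (0.77). *cwf15*, of the Prp19 complex, went from 3.24, 5.59 and 6.32 to 7.13, 12.7 and 9.56 (0.90 ± 0.26, adjusted p = 0.024) and in the *atf21Δ*-labelled libraries from 4.58, 5.07 and 4.45 to 8.09, 5.35 and 7.6 (0.51 ± 0.18, adjusted p = 0.049). The last value sat at the threshold and was called in 4 of 18 fits with 1 library left out, and the WT call was lost without 0 min replicate 1 or 30 min replicate 2 or 3 (adjusted p = 0.0551 to 0.125). With 1 library left out, the WT call of *prp31* was made in 14 of 18 fits. The *cwf25* call in the *atf21Δ*-labelled libraries was made in 15 of 18. Without scaling, the WT changes of *cwf15*, *cwf25*, *prp11*, *prp28* and *prp31* kept their sign and did not pass.

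**Figure D3:**
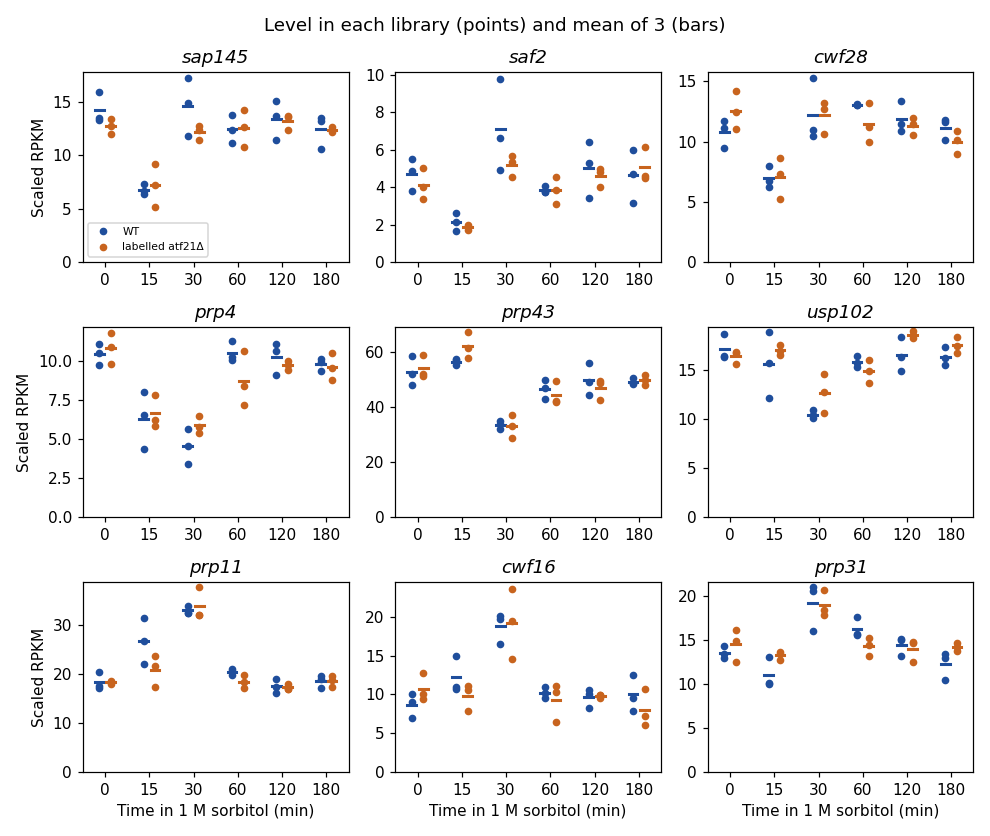
Scaled RPKM in each library (points) and group means (bars) over time for 9 genes, WT in blue and *atf21Δ*-labelled libraries in orange. Rows show genes low at 15 min (*sap145*, *saf2*, *cwf28*), low at 30 min (*prp4*, *prp43*, *usp102*) and high at 30 min (*prp11*, *cwf16*, *prp31*).

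Other genes dipped at 15 min, and the 2 with the largest dips in WT, *sap145* and *saf2*, were back by 30 min. *sap145*, a subunit of the SF3b part of the U2 snRNP (chromosome I, 4804513 to 4806453), was at 15.9, 13.3 and 13.5 at 0 min, 6.33, 7.34 and 6.65 at 15 min and 14.9, 11.8 and 17.2 at 30 min in WT. The *atf21Δ*-labelled libraries had 12, 13.4 and 12.8, then 7.19, 9.19 and 5.19, then 11.4, 12.7 and 12.4. In both strains 15 min lay below 0 and 30 min without overlap, while 0 and 30 min overlapped. The log2 change at 15 min was -1.02 ± 0.15 in WT and -0.81 ± 0.15 in the *atf21Δ*-labelled libraries (adjusted p = 0.00014 and 0.00054), and the step from 15 to 30 min was 1.05 and 0.75.

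*saf2*, a splicing-associated factor (chromosome I, 3950396 to 3951679), showed the steepest recovery. WT had 3.8, 4.88 and 5.49 at 0 min, 1.65, 2.13 and 2.6 at 15 min and 4.89, 6.62 and 9.76 at 30 min, and the *atf21Δ*-labelled libraries had 3.34, 3.99 and 5, then 1.98, 1.85 and 1.72, then 5.36, 5.64 and 4.53. All 15 min libraries were below all others of these times. The step from 15 to 30 min was 1.50 in WT and 1.27 in the *atf21Δ*-labelled libraries, and the dip itself -0.99 ± 0.26 and -0.96 ± 0.17. With 22 to 149 reads per library, the WT call of the dip was lost without 0 min replicate 2 or 3 or 15 min replicate 1 (adjusted p = 0.0565 to 0.0752).

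*cwf28* (-0.60 ± 0.14 in WT and -0.81 ± 0.15 in the *atf21Δ*-labelled libraries) and *cwf19* (-0.75 ± 0.21 and -0.57 ± 0.14) dipped in both strains as well. In the *atf21Δ*-labelled libraries *cwf19* was still at 5.45, 7.23 and 7.35 at 30 min, below its 8.63, 7.67 and 8.45 of 0 min without overlap (-0.30 ± 0.14, which did not pass). *cwf20* stood at 0.482, 1.81 and 0.865 in WT at 15 min, -0.90 ± 0.33, which did not pass. *prp45* of the Prp19 complex (-0.49 ± 0.12) and *cwf22* (-0.32 ± 0.09) dipped in WT, and in the *atf21Δ*-labelled libraries they stood at -0.20 and -0.23 without passing. Between 15 and 30 min, 18 of the 70 rose in WT (21.4% of all features did) and 5 fell (15.7%), and in the *atf21Δ*-labelled libraries 17 rose (23.2%) and 13 fell (16.8%). Only the rises in both strains and the falls in the *atf21Δ*-labelled libraries were as frequent as, or slightly above, the background.

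By role, the genes of the rings that the naming rule includes had few calls over time. Of its 3 Sm genes none changed over time by the F-test in either strain, with 30 min changes of -0.37 to -0.06 in WT. Among Sm genes outside the rule, *smb1* was called in both strains, *smf1* in WT alone, and *sme1* and *smg1* in neither. Within the rule *smd2* (18.7, 20.9 and 18.7 at 0 min, 20.1, 14.1 and 11.7 at 30 min in WT, groups overlapping) fell at 30 min in the *atf21Δ*-labelled libraries alone, from 19.4, 24.5 and 20.3 to 13.6, 17 and 17.3 (-0.41 ± 0.12). Of the 8 Lsm genes 1 changed in WT and 3 in the *atf21Δ*-labelled libraries, where the median change at 30 min was -0.34 (-0.07 in WT). These shares are under the 51.8% and 62.2% of all features, and the groups were not tested against each other. *lsm7* fell from 52.6, 57.5 and 57.3 to 45.1, 43.1 and 45.1 in WT (-0.33 ± 0.10) and from 59.8, 56.1 and 54.2 to 39.1, 44.9 and 47.1, without overlap. Its WT call was lost in 4 of 18 fits with 1 library left out (0 min replicates 2 and 3, 30 min replicates 2 and 3), with an adjusted p of up to 0.107. *lsm1* (-0.41 ± 0.11) and *lsm3* (-0.36 ± 0.10) were lower in the *atf21Δ*-labelled libraries as well, and *lsm2* was higher (0.51 ± 0.16).

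In the larger groups both directions occurred. The F-test called 3 of 9 U1 genes in WT, 4 of 9 of the U2 snRNP and branch site, 4 of 7 of the tri-snRNP, 3 of 13 of the Prp19 complex, 8 of 14 of the catalytic and disassembly factors and 3 of 6 of the other splicing-associated genes. Counts in the *atf21Δ*-labelled libraries were 5, 5, 6, 5, 8 and 4. Against 51.8% and 62.2% of all features, groups this small give no result of their own. *prp19*, the ubiquitin ligase that names its complex, fell at 30 min in both strains (-0.38 ± 0.09 and -0.31 ± 0.08), from 44.4, 39.1 and 42.5 to 33.8, 34.6 and 28.3 in WT, where the groups did not overlap. *prp10* (SF3B1) was higher in the *atf21Δ*-labelled libraries (0.34 ± 0.07) and stood at 0.30 ± 0.11 in WT. *prp16* was higher at 15 min in WT (0.41 ± 0.12), a direction that turned without scaling (-0.07). *cwf21* was lower at all of 60, 120 and 180 min in the *atf21Δ*-labelled libraries (-0.38, -0.45 and -0.46). It overlaps *snu6*, the U6 RNA gene, on the same strand by 83 bases, and *snu6* had 3559 to 15753 reads per library against 130 to 659 for *cwf21*, so its values are uncertain.

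*sap1*, which is no splicing factor, had the largest change in the *atf21Δ*-labelled libraries: 20.9, 26.5 and 23 at 0 min became 55, 44.6 and 52.9 at 30 min (1.10 ± 0.16, adjusted p = 8.2e-05). In WT it went from 17.8, 42.3 and 38.5 to 40.8, 74.2 and 82.6. These groups overlapped, since replicate 1 was the lowest at both times, and 1.02 ± 0.39 had an adjusted p of 0.091. Without 30 min replicate 1 it was 1.34 with an adjusted p of 0.0378.

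**Figure D4:**
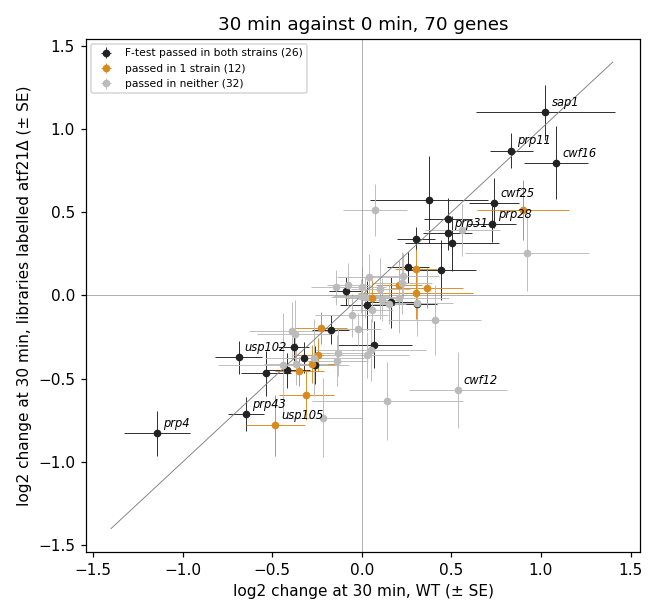
log2 change at 30 min in WT (horizontal) against the *atf21Δ*-labelled libraries (vertical), with SE bars, for 70 genes coloured by the F-test in each strain (26 passed in both, 12 in 1 and 32 in neither). The line marks equal change; *prp4*, *prp43* and *usp102* sit low, and *cwf16*, *prp11* and *sap1* high, in both.

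No gene of the set was called as responding differently between the strain labels. In a fit of all 36 libraries the strain-by-time interaction passed for 0 of the 70 genes by limma, against 2 features in all (0.034%). At an unadjusted p under 0.05 there were also 0 of 70, against 4.49% of features, and voom called 0. The 3 genes with the smallest p were *prp1* (0.064), *cwf12* (0.096) and *prp31* (0.103). *prp1*, the tri-snRNP protein that bridges U4/U6 and U5, had 18.6, 20.4 and 19.4 at 0 min and 21.3, 25.1 and 26.5 at 30 min in WT, and 21.7, 20.4 and 20.4 then 18.3, 20.5 and 21.6 in the *atf21Δ*-labelled libraries. *cwf12* went from 1.34, 1.23 and 1.71 to 1.97, 2.51 and 2.37 in WT and from 2.18, 2.65 and 1.96 to 1.22, 1.8 and 1.11 in the *atf21Δ*-labelled libraries. WT was thus higher and the *atf21Δ*-labelled libraries lower at 30 min for *cwf12*, at few reads. The SE of the difference at 30 min was 0.21 on the log2 scale in the median gene (0.11 to 0.51), so a strain difference as large as most changes of these genes would hardly have been called, and a count of 0 could be reached with such differences present. The absence of a call does not show that the strains respond alike. Among the 26 genes called in both strains, which share no library, 22 (84.6%) had the same sign of change at 15 min and 21 (80.8%) at 30 min, against 88.2% and 90.7% of the 2602 features called in both. At 30 min all 7 genes called higher in WT and all 7 called lower were called in the same direction in the *atf21Δ*-labelled libraries. There 10 and 15 were called. The same share over all features was not counted, so these calls cannot be set against a background. By the F-test over time, 85.4% of all features called in WT were called in the other strain too.

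Genes with and without introns differed in how often they were called. In WT, 10 of the 44 genes with a coding intron changed over time (22.7%), against 50.8% of all 2287 such genes tested, whereas 17 of the 26 without an intron changed (65.4%), against 61.7% of 2567. Shares in the *atf21Δ*-labelled libraries were 40.9% (62.8% of all) and 73.1% (73.5%). These are counts with no test of the difference. Of the 7 genes higher at 30 min in WT, *cwf15* and *cwf25* have an intron and *cwf16*, *prp11*, *prp28*, *prp31* and *usp101* have none, and of the 7 lower, all but *prp43* have one. Of the 44 genes with an intron 13.6% were lower and 4.55% higher at 30 min in WT (14.9% and 13.7% of all genes with one), and of the 26 without, 3.85% and 19.2% (14.7% and 20.2% of all). At 15 min, 5 of the 8 lower genes in WT have none, or 19.2% of the 26 (15.3% of all genes without an intron). The median change at 30 min in WT was 0.01 for genes with and 0.25 for genes without an intron (-0.05 and 0.02 over all genes), and -0.16 and 0.04 in the *atf21Δ*-labelled libraries. RPKM was counted over the whole span of a gene, introns included, so spliced and unspliced RNA cannot be told apart in these values.

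**Figure D5:**
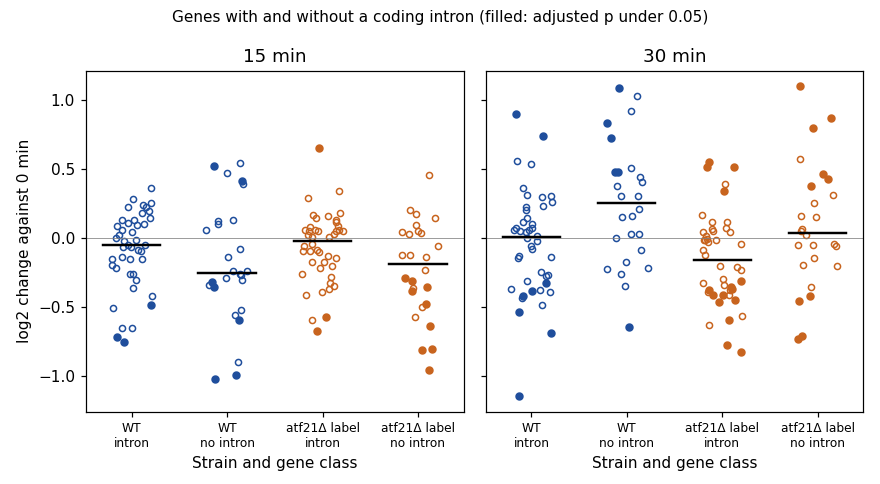
log2 change at 15 min (left) and 30 min (right) of genes with and without a coding intron in each strain; points are genes, filled where the adjusted p was under 0.05, and bars are medians. At 30 min in WT the median was 0.01 with and 0.25 without an intron.

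In the 300 bases around the gene start (250 before to 50 after, RefSeq ASM294v3), the CRE word TGACGT, bound by factors of the Atf1 type, was present on either strand in 1 of the 70 genes (*saf4*, 1.43%), against 5.92% of 5099 windows. TATAAA was present in 34 (48.6%), against 48.1%. The words say only what these windows hold.

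Other genes of the spliceosome, taken from a list of 39 names of which 24 were in the table, were counted against 51.8% and 62.2% of all features: 10 of 24 changed over time in WT and 9 in the *atf21Δ*-labelled libraries, 7 in both. The 7 were *slu7*, a second-step factor (0.89 at 30 min in WT and 1.01 in the *atf21Δ*-labelled libraries), *syf2* (1.17 and 0.94), *aar2* (0.49 and 0.66), *dbr1*, the lariat-debranching enzyme (-0.77 and -0.67), *smb1* (-0.33 and -0.16), *snu13* (-0.30 and -0.21) and *srp1* (0.16 and 0.32). The 30 min changes of *smb1* and *snu13* passed in neither strain, and that of *srp1* did not pass in WT. Instead *smb1* and *srp1* were called higher at 15 min in WT (0.44 and 0.40). At 30 min 4 of the 24 were higher and 1 lower in WT, against 15.5% and 13.2% of all features. In the *atf21Δ*-labelled libraries 5 were higher and 1 lower, against 19.7% and 19.1%.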

How the data were processed

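The deposited table holds RPKM, which the authors computed from uniquely mapped SOLiD reads counted by strand over the full span of each feature. Reads had been aligned with SHRiMP2 to PomBase release 11 and replicates were not pooled. Columns were matched to samples by name. Value times length was a whole number of reads for 253404 of 253404 values (tolerance 0.01 read), and depth came from these reads.

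To set a common level, log ratios were averaged without weights after trimming 30% by ratio and 5% by level (factors 0.685 to 1.35). Then 0.5 was added and log2 taken, so fold changes of low genes are understated. Features that reached 1 RPKM in over 6 libraries (5882, all 70 genes included) were fitted per strain with limma 3.58.1 in R 4.3.3, with 1 coefficient per time and limma's trend option. Calls used Benjamini-Hochberg adjusted p under 0.05 over all features, and single times were adjusted over features and times together. Strain effects were tested in a fit of all 36 libraries. All tests were two-sided or F-tests. No check on simulated data is given for the F-test over time in each strain, the contrast between stress times or voom. Others, the interaction test among them, were tested on simulated data. There the interaction test missed the recovery first required of it at the middle simulated size, and that recovery was then required at the largest size only. Its estimates were right, but it recovered few differences of the smallest simulated size, a size that few of the 70 genes reached at any time. The interaction result thus says little on differences under the middle size. Tables and plots used Python 3.11.15, numpy 2.4.6, pandas 2.3.3 and matplotlib 3.10.9.

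The genes, role groups and the list of other spliceosome genes were chosen with earlier results of these data known. Values in every library are given for genes called by the F-test in both strains with the 5 lowest and 5 highest changes at 30 min or the 3 lowest and 3 highest at 15 min in WT, the 3 highest and 3 lowest levels, the 3 smallest interaction p and the largest change at 30 min in each role group. Other genes given by library were chosen after their values were seen. Of the other spliceosome genes, those called in both strains are named, and the Sm genes among them whether called or not.

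Other settings tried were a pseudocount of 0.1 or 1, values left unscaled, quantile normalization, the filter left out or raised to 5 RPKM, the replicate number as a block, limma without trend, 1 fit of all libraries, voom on recovered reads, and leaving out each library. The contrast of 30 with 15 min and the alternatives for changes at 15 min were added after the data were seen. Sequences are from RefSeq ASM294v3, whose coordinates are not printed; positions are those of the table.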

Additional observations from a re-analysis of the deposited data

How the results depend on the processing

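The limits are few reads for the lowest genes, counting over whole gene spans and a scaling that sets a common level. Over the alternatives other than leaving out libraries, 242 counts stayed within 1.5 times and 32 did not, and of the single-gene changes 500 kept direction and side of the threshold, 20 lost the call and 12 gained it. Without scaling, 42 genes changed over time in WT, 0 were higher and 34 lower at 15 min, 1 higher and 18 lower at 30 min, and 2 lower at 30 than at 15 min; in the *atf21Δ*-labelled libraries 0 were higher and 30 lower at 15 min, 2 higher and 23 lower at 30 min, 2 lower at 30 than at 15 min, 0 lower at 60 min and 0 higher at 180 min. That fit leaves the shift of all features in the values. In 1 fit of all libraries WT had 4 higher at 15, 12 at 30, 1 at 120 and 1 at 180 min, and the *atf21Δ*-labelled libraries had 0 higher at 180 and 0 lower at 120 and 180 min. With the replicate number as a block, 31 genes changed in WT and 41 in the *atf21Δ*-labelled libraries; WT had 1 higher at 120 and 1 at 180 min, and the other libraries 2 higher at 15 and 2 lower at 120 min. Same-numbered samples deviated together at r = -0.16 to 0.50, with 20 of 30 pairs over 0.1, against 6 of 60 pairs of different number (r = -0.48 to 0.29). This hints at pairing, but not every pair passed and the labels name no shared batch, so the numbers were not taken to pair the samples. With the block *sap1* at 30 min in WT had an adjusted p of 0.00338 by limma. Quantile normalization gave 1 lower at 60 min and 9 lower at 30 than at 15 min in WT and 8 lower at 60 min in the *atf21Δ*-labelled libraries. Voom gave 1 lower at 60 min in WT and 2 higher at 60 min in the other libraries. There, an RPKM of at least 5 gave 1 higher at 60 and 1 lower at 180 min, and limma without trend 2 lower at 60 min. The cause of these moves was not tested.

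With 1 library left out, 22 to 32 genes changed over time in WT, 1 to 4 were higher and 4 to 13 lower at 15 min, 4 to 11 higher and 4 to 9 lower at 30 min, 12 to 19 higher and 4 to 8 lower at 30 than at 15 min, 0 to 1 lower at 60 and 0 to 1 higher at 120 and at 180 min. The extremes came without WT 15 min replicate 3 (11 higher at 30 min), WT 0 min replicate 1 (4 higher at 30 min), WT 0 min replicates 2 and 3 (4 lower at 15 min) and WT 15 min replicate 2 (13 lower at 15 min). In the *atf21Δ*-labelled libraries the ranges were 30 to 37 changed, 1 to 2 higher and 6 to 13 lower at 15 min, 4 to 10 higher and 8 to 17 lower at 30 min, 15 to 18 higher and 5 to 13 lower at 30 than at 15 min, 0 to 1 higher and 0 to 6 lower at 60, 0 to 1 higher and 0 to 1 lower at 120, and 1 to 2 higher and 0 to 3 lower at 180 min, with 4 higher at 30 min without 0 min replicate 3 and 8 lower without 30 min replicate 1.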
